A study of Mus musculus with 14 samples.

Results

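Metallothioneins and zinc transport are described here by 5 mouse genes: Mt1 and Mt2, which encode the metallothioneins made in most tissues, the zinc importer gene Slc39a14, the zinc exporter gene Slc30a1, and Mtf1, which encodes the zinc-sensing transcription factor of the system. They were taken as all probe sets that the platform annotation assigns to these symbols alone, which gave 14 of 45101 probe sets and 5 of 18194 genes with a probe set. The probe set with the highest mean over all arrays stood for each gene, and the others served as a check. All 5 genes exceeded the median of the array in every one of 14 arrays and entered the tests.

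The values are log2 expression values of total RNA from whole mouse lung on 14 Affymetrix arrays, in a series on pre-B-cell colony-enhancing factor (PBEF, the product of Nampt) and lung injury by mechanical ventilation. Arrays labelled VILI PBEF+/- (n = 3) came from animals aged 8 to 12 weeks that were ventilated for 4 h at 40 ml/kg. The VALI arrays (n = 4) came from animals aged 18 to 22 weeks with the same ventilation, the PBEF+/- arrays (n = 3) from unventilated animals of 18 to 22 weeks, and the Control arrays (n = 4) from animals of 18 to 22 weeks given PBS. No strain is named, and the labels do not settle whether PBEF+/- is a genotype or the recombinant protein given into the trachea, which the series text names along with a tidal volume of 30 ml/kg. Age and the VILI PBEF+/- label cannot be told apart, and no label says that each array is a separate animal.

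Metallothioneins are small cysteine-rich proteins that bind zinc and copper and also take up oxidants. When free zinc rises, MTF1 enters the nucleus and binds metal response elements in the promoters of the metallothionein genes and of Slc30a1, so that zinc is buffered and pumped out of the cell. Metallothionein genes also respond to glucocorticoids, to IL-6 through STAT3 and to oxidative stress. The product of Slc39a14, called ZIP14, carries zinc, iron and manganese into cells and is induced by IL-6 in mouse liver.

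Mt1 and Mt2 are neighbours on chromosome 8, where RefSeq's table for GRCm38.p6 places Mt2 at chr8:94172618-94173567 and Mt1 at chr8:94178883-94180327. RefSeq promoter windows of 300 bases, 250 before and 50 after an annotated start, were found for 4 of the 5 genes. The windows of Mt1, Mt2 and Slc30a1 are shown because they hold the core of the metal response element, and capitals mark each match to TGCACNC or TGCGCNC on either strand. A match on the minus strand reads as the reverse complement, and none of these matches overlaps a match to the other motifs searched. The window of Mt1 lies at chr8:94178839-94179138, that of Mt2 at chr8:94172368-94172667 and that of Slc30a1 at chr1:191906531-191906830, all on the plus strand.
Mt1: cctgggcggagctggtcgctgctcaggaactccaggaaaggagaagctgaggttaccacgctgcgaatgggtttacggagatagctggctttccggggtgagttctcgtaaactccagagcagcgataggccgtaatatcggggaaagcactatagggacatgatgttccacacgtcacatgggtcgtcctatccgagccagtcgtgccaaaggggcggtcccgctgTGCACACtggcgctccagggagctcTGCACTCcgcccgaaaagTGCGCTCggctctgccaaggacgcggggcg
Mt2: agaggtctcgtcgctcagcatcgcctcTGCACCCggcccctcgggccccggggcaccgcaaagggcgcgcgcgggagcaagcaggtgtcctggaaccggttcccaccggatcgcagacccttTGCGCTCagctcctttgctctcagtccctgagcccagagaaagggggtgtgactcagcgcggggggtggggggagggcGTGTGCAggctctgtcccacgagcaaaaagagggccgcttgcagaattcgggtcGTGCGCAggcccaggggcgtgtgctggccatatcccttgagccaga
Slc30a1: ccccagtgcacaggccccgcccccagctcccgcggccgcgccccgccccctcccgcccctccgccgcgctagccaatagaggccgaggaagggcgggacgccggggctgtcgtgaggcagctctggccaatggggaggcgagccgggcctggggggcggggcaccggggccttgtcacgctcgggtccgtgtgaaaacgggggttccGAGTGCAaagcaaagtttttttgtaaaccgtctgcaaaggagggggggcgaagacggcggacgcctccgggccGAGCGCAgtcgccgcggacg

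Mt2 held 4 matches, Mt1 held 3 and Slc30a1 held 2. Of 32851 windows of this length, 25.7% held at least 1 match, 7.11% at least 2, 1.97% at least 3 and 0.518% at least 4. The Mtf1 window, at chr4:124802299-124802598, held 0, which says only that these letters are not in those 300 bases. The core of the antioxidant response element, TGACNNNGC, matched 1 time each in Mt2 and Slc30a1 and is found in 12.4% of all windows. Neither the STAT element TTCNNNGAA, found in 8.3% of windows, nor the E-box CACGTG, found in 7.15%, matched in any of the 4 windows. The gene spans of Mt2 and Mtf1 begin at the annotated start on which their windows were placed. Those of Mt1 and Slc30a1 begin inside their windows but before that start, so these windows hold less sequence from before the gene span. These are matches of letters, and binding was not measured.

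A pair of arrays, VALI replicate 4 and PBEF+/- replicate 3, went against their labels in Il6 and have to be named first. Il6, the cytokine induced by overstretching of the lung, stood at 2.78 on VALI replicate 4 and at 10.87 on PBEF+/- replicate 3 (log2 level). The other VALI arrays lay between 9.60 and 9.85, and the other unventilated arrays between 2.09 and 2.56. Not every gene went against the label of VALI replicate 4: Saa3 was at 10.68 there and at 9.96, 10.13 and 11.88 on the other VALI arrays, against 5.50 to 8.19 in Control, and Lcn2 was at 13.78, within the range of the other VALI arrays. VALI replicate 4 was also high in squamous epithelium and skeletal muscle genes, as was VALI replicate 1 (below). The part of such tissue in its Saa3 and Lcn2 levels was not tested. Whether VALI replicate 4 and PBEF+/- replicate 3 were exchanged cannot be told from the labels. Results are given for all 14 arrays and, beside them, for the 12 arrays that remain without this pair. Since the pair was picked by its own values, p-values without it are conditional on that choice. Array medians lay between 4.60 and 4.75 in all 14.

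Mt1 was measured at 14.65, 14.83 and 13.99 in VILI PBEF+/- lungs, at 14.15, 14.09, 13.94 and 11.64 in VALI lungs, at 11.57, 10.60 and 14.47 in PBEF+/- lungs, and at 11.28, 11.24, 11.53 and 10.88 in Control lungs (log2 level, replicates in order). In words, 6 of the 7 ventilated arrays stood above every Control array by over 2 log2 units, while VALI replicate 4 lay just above the highest Control array and PBEF+/- replicate 3 stood among the ventilated arrays. The group means were 14.49 ± 0.44 in VILI PBEF+/-, 13.46 ± 1.21 in VALI, 12.21 ± 2.01 in PBEF+/- and 11.23 ± 0.26 in Control (SD, n = 3, 4, 3 and 4). Neighbouring groups in this order overlapped in their ranges.

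Mt2 followed the same order of groups. Its log2 level was 14.11, 14.21 and 13.62 in VILI PBEF+/- lungs, 13.74, 13.65, 13.58 and 10.73 in VALI lungs, 10.17, 9.88 and 13.98 in PBEF+/- lungs, and 9.83, 10.21, 10.62 and 9.11 in Control lungs. VALI replicate 4 was just above the highest Control array, and the other 6 ventilated arrays were all at 13.58 or higher. The means were 13.98 ± 0.32 in VILI PBEF+/-, 12.92 ± 1.47 in VALI, 11.34 ± 2.29 in PBEF+/- and 9.94 ± 0.64 in Control (SD, n = 3, 4, 3 and 4). Mt1 and Mt2 are close paralogs, and the Mt1 probe set carries the suffix that Affymetrix gives to sets which may match several transcripts, so signal of either gene on the other's probes cannot be told apart here.

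Slc39a14 split the arrays in the same way. It stood at 9.89, 9.97 and 8.56 in VILI PBEF+/- lungs, at 9.13, 8.80, 9.01 and 6.83 in VALI lungs, at 7.04, 6.90 and 9.14 in PBEF+/- lungs, and at 6.99, 7.26, 7.42 and 7.32 in Control lungs (log2 level). VALI replicate 4 was below all 4 Control arrays, and the other 6 ventilated arrays lay above all of them. The means were 9.47 ± 0.79 in VILI PBEF+/-, 8.44 ± 1.08 in VALI, 7.69 ± 1.26 in PBEF+/- and 7.25 ± 0.19 in Control (SD, n = 3, 4, 3 and 4). The other 3 probe sets of Slc39a14 stayed at 2.26 to 4.25 on every array, below the array medians, and did not enter the tests.

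On the probe sets that stood for them, Slc30a1 and Mtf1 stayed within a narrow range on all arrays. The log2 level of Slc30a1 was 10.42, 10.45 and 10.56 in VILI PBEF+/- lungs, 10.36, 10.34, 10.43 and 10.58 in VALI lungs, 10.53, 10.93 and 10.58 in PBEF+/- lungs, and 10.64, 10.73, 10.47 and 11.02 in Control lungs. Ventilated and Control arrays overlapped at the low end of the Control range, and the means spanned only 10.43 ± 0.11 in VALI to 10.71 ± 0.23 in Control (SD, n = 4 each). Mtf1 was at 8.34, 8.37 and 8.54 in VILI PBEF+/- lungs, 8.20, 8.06, 8.38 and 8.29 in VALI lungs, 8.22, 8.21 and 8.17 in PBEF+/- lungs, and 8.44, 8.43, 8.32 and 8.31 in Control lungs. On this probe set the 14 values of the sensor gene lay between 8.06 and 8.54, on arrays over which both metallothionein genes spread across more than 4 units. Another Mtf1 probe set, given below, split the arrays as the metallothionein genes did.

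**Figure D1:**
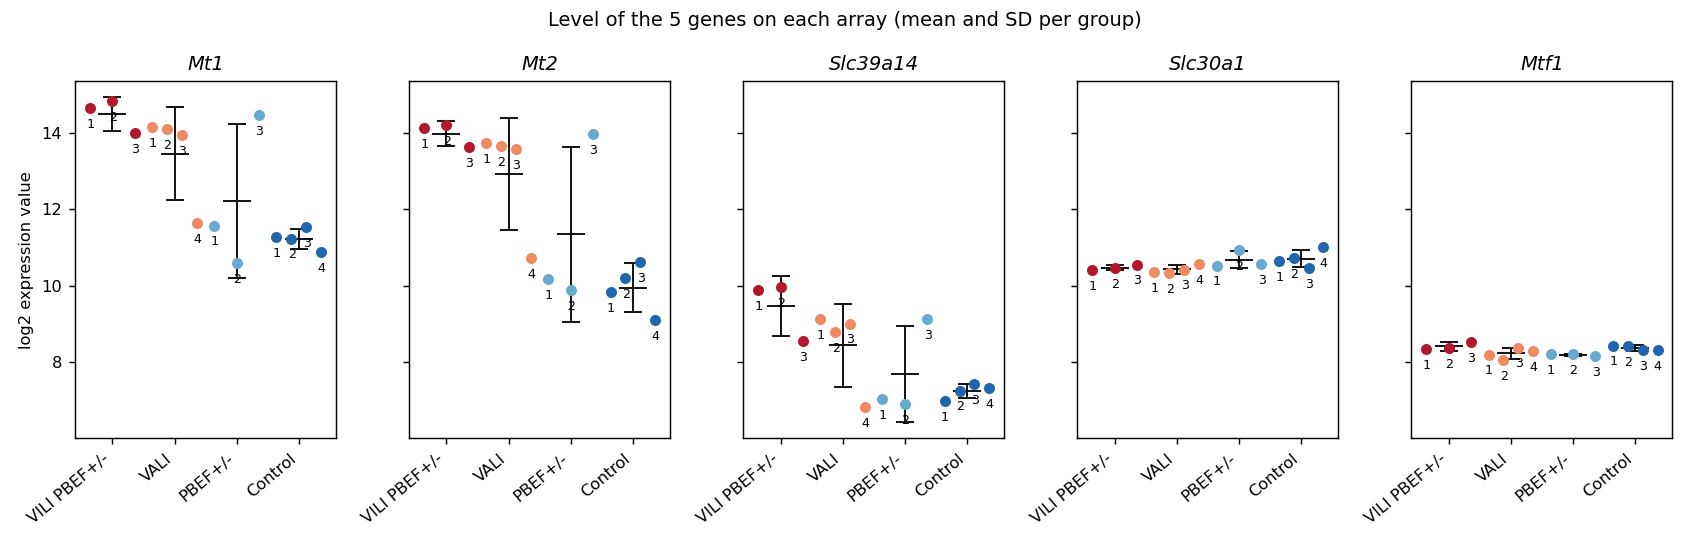
Log2 expression value (vertical axis) of the 5 genes on each of the 14 arrays, grouped by label (horizontal axis); points are arrays numbered by replicate, and black bars are the mean and SD of each group. Mt1, Mt2 and Slc39a14 are high on every VILI PBEF+/- array, on VALI replicates 1, 2 and 3 and on PBEF+/- replicate 3, while Slc30a1 stays at 10.34 to 11.02 and Mtf1 at 8.06 to 8.54.

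Averaged over both PBEF labels, Mt1 and Mt2 were higher in ventilated lungs. The average takes in VILI PBEF+/- minus PBEF+/-, where age and ventilation cannot be told apart. With all 14 arrays, the ventilated minus unventilated difference was 2.25 ± 0.55 on the log2 scale for Mt1 (SE; 4.76-fold, adjusted p = 0.0364) and 2.81 ± 0.65 for Mt2 (7.01-fold, adjusted p = 0.0332). These were 2 of the 5 genes, where 8.36% of 11360 tested genes were called in either direction at an adjusted p under 0.05 (limma). Slc39a14 differed by 1.49 ± 0.43 (2.81-fold, adjusted p = 0.0506) and did not pass. Slc30a1 differed by -0.24 ± 0.10 (adjusted p = 0.103) and Mtf1 by 0.03 ± 0.08 (adjusted p = 0.772), with 95% intervals of -0.45 to -0.04 and -0.13 to 0.20.

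These calls rest on a narrow margin. No member was called after leaving out any single array other than VALI replicate 4, PBEF+/- replicate 3 or VILI PBEF+/- replicate 3, and 3 were called without each of those. The size moved less: over these 14 settings the difference lay between 1.85 and 2.81 for Mt1, and between 2.44 and 3.47 for Mt2. The adjusted p reached 0.105 for Mt1 and 0.0993 for Mt2, both without PBEF+/- replicate 1, and the lowest values were 0.00128 and 0.00113 without PBEF+/- replicate 3.

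Without both arrays, the averaged difference was 3.12 ± 0.19 for Mt1 (8.67-fold, adjusted p = 1.07e-06), 3.83 ± 0.22 for Mt2 (14.3-fold, adjusted p = 6.36e-07) and 2.12 ± 0.22 for Slc39a14 (4.34-fold, adjusted p = 4.77e-05). Slc30a1 fell by 0.30 ± 0.10 on the log2 scale (adjusted p = 0.0416), so 4 of the 5 genes were called, against a background of 39.5% of tested genes. The fall of Slc30a1 was not shared by its second probe set, which with all arrays differed by 0.09 ± 0.10 (adjusted p = 0.577). Mtf1 differed by 0.02 ± 0.09.

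Lungs labelled VALI were set against Control lungs for the response to ventilation without the PBEF label. With all arrays none of the 5 genes was called, as was 0% of all tested genes, of which 2075 had an unadjusted p under 0.05. The differences were 2.23 ± 0.72 for Mt1 (unadjusted p = 0.00838, adjusted p = 0.166), 2.98 ± 0.85 for Mt2 (adjusted p = 0.136) and 1.20 ± 0.56 for Slc39a14 (adjusted p = 0.278). Without VALI replicate 4 alone, Mt1 differed by 2.83 (adjusted p = 0.0338) and Mt2 by 3.71 (adjusted p = 0.0292), and both were called; without PBEF+/- replicate 3 alone, which enters through the shared spread, both were called at adjusted p = 0.0389 and 0.0318. Without both, Mt1 rose by 2.83 ± 0.24 (7.12-fold, adjusted p = 4.24e-05), Mt2 by 3.71 ± 0.28 (13.1-fold, adjusted p = 1.76e-05) and Slc39a14 by 1.73 ± 0.29 (3.32-fold, adjusted p = 0.00255), 3 of 5 genes against 17% of all tested. Slc30a1 differed by -0.34 ± 0.13 (adjusted p = 0.106) and Mtf1 by -0.16 ± 0.11 (adjusted p = 0.343), with no call for the exporter or the sensor.

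Lungs labelled VILI PBEF+/- were set against PBEF+/- lungs for the same response among arrays with the PBEF label, where the ages differ as well. With all arrays none of the 5 genes was called, nor was any other gene (0%, with 2355 at an unadjusted p under 0.05). Mt1 differed by 2.27 ± 0.83 (adjusted p = 0.181), Mt2 by 2.64 ± 0.98 (adjusted p = 0.187) and Slc39a14 by 1.78 ± 0.65 (adjusted p = 0.184). Leaving out PBEF+/- replicate 3 alone brought all 3 past the threshold, with adjusted p = 0.0081 for Mt1, 0.00915 for Mt2 and 0.0182 for Slc39a14. Without both arrays, Mt1 rose by 3.40 ± 0.29 (10.6-fold, adjusted p = 3.25e-05), Mt2 by 3.96 ± 0.34 (15.5-fold, adjusted p = 3.25e-05) and Slc39a14 by 2.50 ± 0.34 (5.67-fold, adjusted p = 0.000632). These 3 of 5 genes stand against 26.4% of all tested, and PBEF+/- then holds only 2 arrays. Slc30a1 (-0.26 ± 0.16) and Mtf1 (0.20 ± 0.13) were not called.

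**Figure D2:**
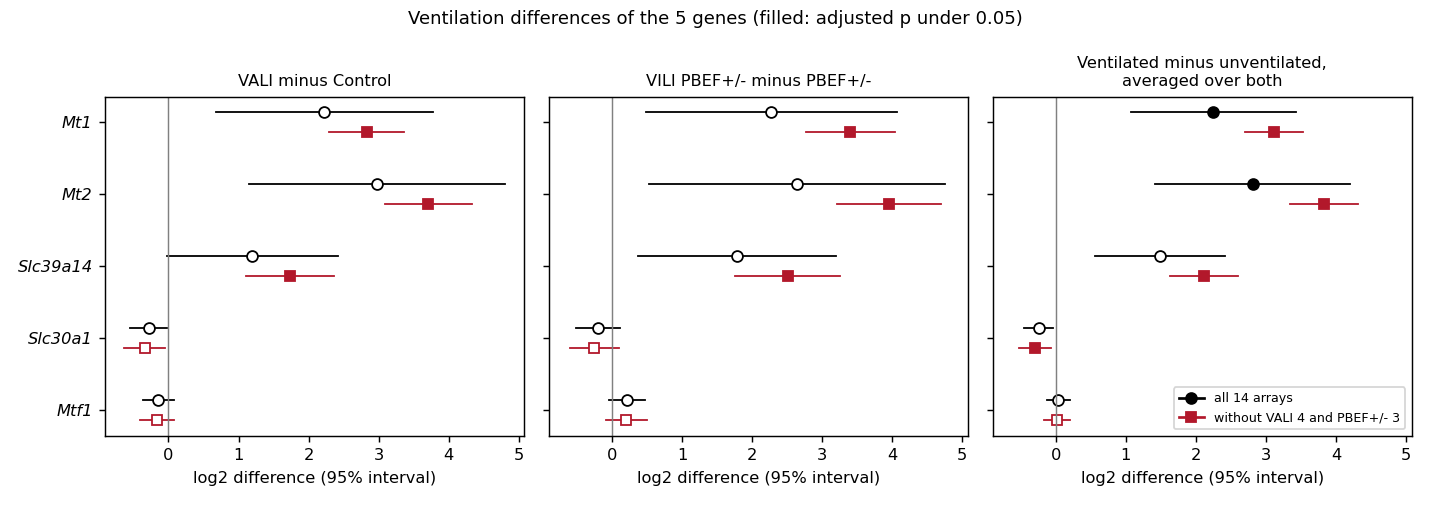
Log2 difference with its 95% interval (horizontal axis) of the 5 genes (rows) in VALI minus Control, VILI PBEF+/- minus PBEF+/- and the average of both; black circles use all 14 arrays, red squares leave out VALI replicate 4 and PBEF+/- replicate 3, and filled symbols passed an adjusted p under 0.05. Mt1, Mt2 and Slc39a14 lie to the right of 0 with narrower intervals without those arrays. Mtf1 stays near 0, and Slc30a1 lies slightly to the left of it, passing only in the average without those arrays (-0.30).

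The metallothioneins and Slc39a14 showed no called difference by PBEF label. Between PBEF+/- and Control lungs the differences with all arrays were 0.98 ± 0.77 for Mt1 (adjusted p = 0.689), 1.40 ± 0.91 for Mt2 (adjusted p = 0.644) and 0.44 ± 0.61 for Slc39a14 (adjusted p = 0.812). Without both arrays they were -0.14 ± 0.28, 0.08 ± 0.32 and -0.28 ± 0.32, so the positive values of Mt1 and Slc39a14 changed sign once PBEF+/- replicate 3 was left out. The 95% interval for Mt2 was then -0.62 to 0.79. In both settings 0% of all genes were called, with 938 at an unadjusted p under 0.05 when all arrays were used.

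Both groups of ventilated lungs were also compared directly, where the ages differ as well. VILI PBEF+/- exceeded VALI by 1.03 ± 0.77 for Mt1 (adjusted p = 0.621), 1.06 ± 0.91 for Mt2 (adjusted p = 0.67) and 1.03 ± 0.61 for Slc39a14 (adjusted p = 0.541), none of them called, with 0% called overall and 1191 at an unadjusted p under 0.05. Without both arrays these differences were 0.43 ± 0.26, 0.33 ± 0.30 and 0.49 ± 0.31, again not called, where 0.114% of all genes were. The interaction is the ventilation difference with the PBEF label minus that without it, and it carries the age difference too. It called 0% of genes in either setting, with 634 at an unadjusted p under 0.05 on all arrays. Its estimate was 0.05 ± 1.09 for Mt1, -0.34 ± 1.29 for Mt2 and 0.58 ± 0.86 for Slc39a14, with intervals that reach beyond 2 log2 units in both directions for the metallothioneins. Mtf1 had the smallest unadjusted p among the members, with an estimate of 0.36 ± 0.15 (unadjusted p = 0.0373, adjusted p = 0.89).

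Other probe sets of the members were set beside the first where they were measurable. The second Mt1 probe set stood at 11.43, 11.18 and 10.06 in VILI PBEF+/-, 9.98, 9.45, 9.06 and 7.50 in VALI, 6.96, 3.78 and 9.88 in PBEF+/-, and 6.71, 4.58, 4.84 and 3.75 in Control (log2 level). Here VALI replicate 4 was above all Control arrays but remained the lowest of its group. The averaged ventilation difference on this probe set was 4.02 ± 0.80 (adjusted p = 0.0287), compared with 2.25 on the first. Mtf1 had a pair of further measurable probe sets, which differed by 0.07 ± 0.13 (adjusted p = 0.702) and 0.56 ± 0.22 (adjusted p = 0.104), and another pair near 2 on every array that was not tested. The Mtf1 probe set that differed by 0.56 ranged over 4.93 to 6.67. It was at 6.06 or higher on every VILI PBEF+/- array, on VALI replicates 1, 2 and 3 and on PBEF+/- replicate 3. All other arrays were at 5.97 or lower, the same split as for Mt1, Mt2 and Slc39a14. Mt2 had 1 probe set.

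The sexes were not balanced over the groups. From Xist and Y-linked transcripts, all 3 VILI PBEF+/- arrays, 3 of 4 VALI arrays, 2 of 3 PBEF+/- arrays and 2 of 4 Control arrays had a female pattern, and VALI replicate 4 was the only ventilated array with a male one. Among arrays with the female pattern, Mt1 lay at 13.94 to 14.15 in VALI (n = 3) and at 11.24 and 11.53 in Control (n = 2), a difference of 2.68. The same comparison gave 3.24 for Mt2 and 1.64 for Slc39a14. Between VILI PBEF+/- and PBEF+/- arrays of the female pattern, which include PBEF+/- replicate 3, it gave 1.47, 1.91 and 1.38 for Mt1, Mt2 and Slc39a14. Among male patterns, VALI replicate 4 was the single ventilated array, with Mt1 at 11.64 against 11.28 and 10.88 in Control. With the sex pattern as a covariate on all arrays, the averaged difference was 1.80 for Mt1 (adjusted p = 0.0633) and 2.25 for Mt2 (adjusted p = 0.0586), and no gene was called.

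The other metallothionein genes did not pass the filter on low values. Mt3, the brain form, stayed between 3.37 and 3.74 on all 14 arrays, below the array medians. Mt4, the form of stratified squamous epithelium, lay between 2.69 and 2.95 on 12 arrays but at 12.50 on VALI replicate 1 and 11.70 on VALI replicate 4. It exceeded the median on only these 2 arrays, which is below the 3 needed for the tests.

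Squamous epithelium and skeletal muscle genes, from lists chosen after Mt4 was seen, were also high on these arrays. Of 9 squamous genes, 9 exceeded the array median on VALI replicate 1 and 7 on VALI replicate 4, against 0 to 2 on the other arrays. Of 5 muscle genes, 4 did so on each of the 2 arrays, against 1 to 4 on the others. Krt4 was at 14.50 and 14.05 on VALI replicates 1 and 4 and at 2.71 to 2.96 elsewhere, and Krt13 at 14.73 and 13.64 against 2.59 to 4.45 elsewhere. Ckm, muscle creatine kinase, stood at 12.59 and 13.70 on them and at 5.74 to 9.03 on the other arrays. Acta1, also on the muscle list, was highest on VALI replicates 1 and 4, at 15.15 and 15.83. It stood at 8.63 to 11.90 on the other ventilated arrays and at 9.41 on PBEF+/- replicate 3. On the remaining unventilated arrays Acta1 lay at 4.61 to 4.72. Not every gene of these lists followed: Krt6a was at 7.39 on VALI replicate 1 but at 3.04 on VALI replicate 4, the lowest of the 14 arrays, and the muscle myosin gene Myh2 was at 2.31 and 2.26, as low as on the other arrays. Mt1 differed between these arrays, with 14.15 on VALI replicate 1 and 11.64 on VALI replicate 4, and Mt2 did likewise with 13.74 and 10.73. The level of Mt4 therefore did not go with that of Mt1 or Mt2, and the part of other tissue in any member's level was not tested.

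**Figure D3:**
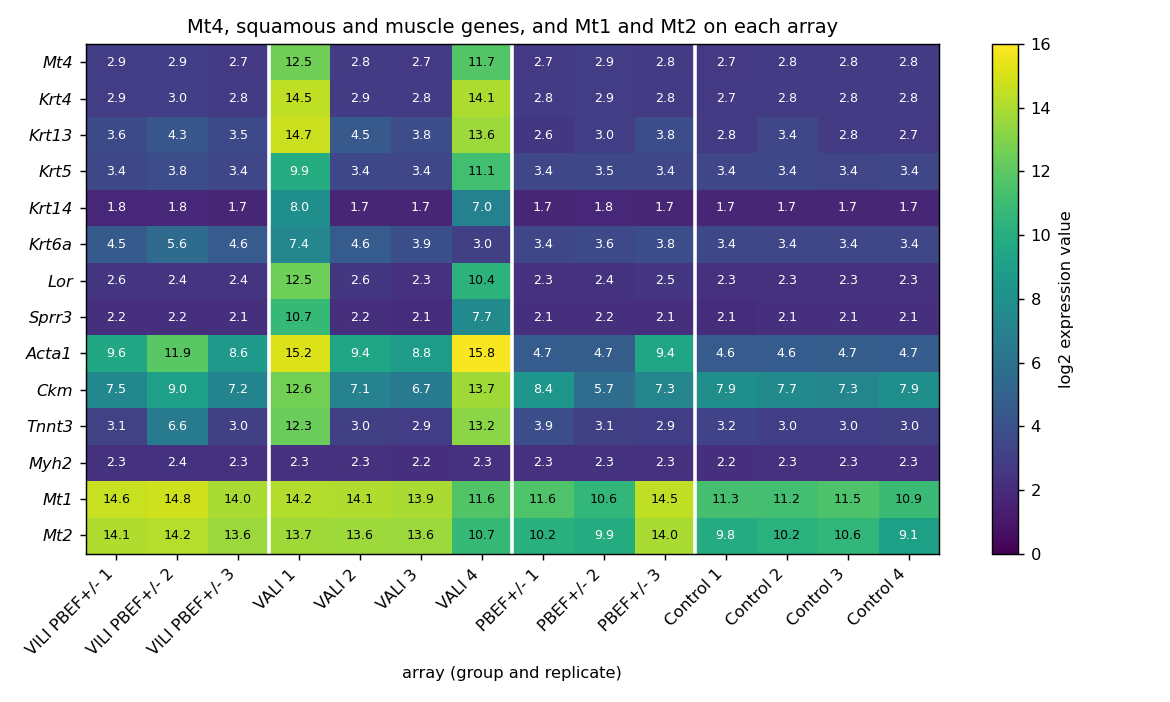
Log2 expression value (colour and number) of Mt4, squamous epithelium genes (Krt4 to Sprr3), skeletal muscle genes (Acta1, Ckm, Tnnt3, Myh2), Mt1 and Mt2 (rows) on each array (columns, by group and replicate). Mt4 reaches 12.50 and 11.70 only on VALI replicates 1 and 4, which are also the highest in Krt4, Krt13, Krt5 and Krt14 but not both in Krt6a, whereas Mt1 is high on the first and at 11.64 on the other.

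Among the 11 importers and 6 exporters of zinc that were tested, Slc39a14 had the largest averaged ventilation difference in both settings. Of 14 listed zinc importers 11 were tested, and 0 were called with all arrays, with a median averaged ventilation difference of -0.06 against -0.05 over all tested genes. After Slc39a14, the importer with the smallest p was Slc39a11 at -0.31 ± 0.13 (adjusted p = 0.117). Without both arrays, Slc39a14 and Slc39a7, which releases zinc from the endoplasmic reticulum, rose, the second by 0.62 ± 0.19 (adjusted p = 0.023). Slc39a13 fell by 0.37 ± 0.12 (adjusted p = 0.0303), and the median of the 11 was -0.09 against -0.07 over all tested genes. Slc39a8, the close relative of Slc39a14, was at 12.31 to 12.85 on all 14 arrays and differed by -0.06 ± 0.07 (adjusted p = 0.589).

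Of 10 listed zinc exporters 6 were tested and 0 were called with all arrays, with a median of 0.01. Slc30a1 had the smallest p, followed by Slc30a4, which loads zinc into vesicles, at 0.17 ± 0.08 (adjusted p = 0.167). Without both arrays, Slc30a4 rose by 0.27 ± 0.07 (adjusted p = 0.00841), Slc30a1 fell as given above, and the median was 0.04. The other 4 exporters were below the filter, between 1.98 and 3.98 on all arrays for Slc30a2, Slc30a3, Slc30a8 and Slc30a10.

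**Figure D4:**
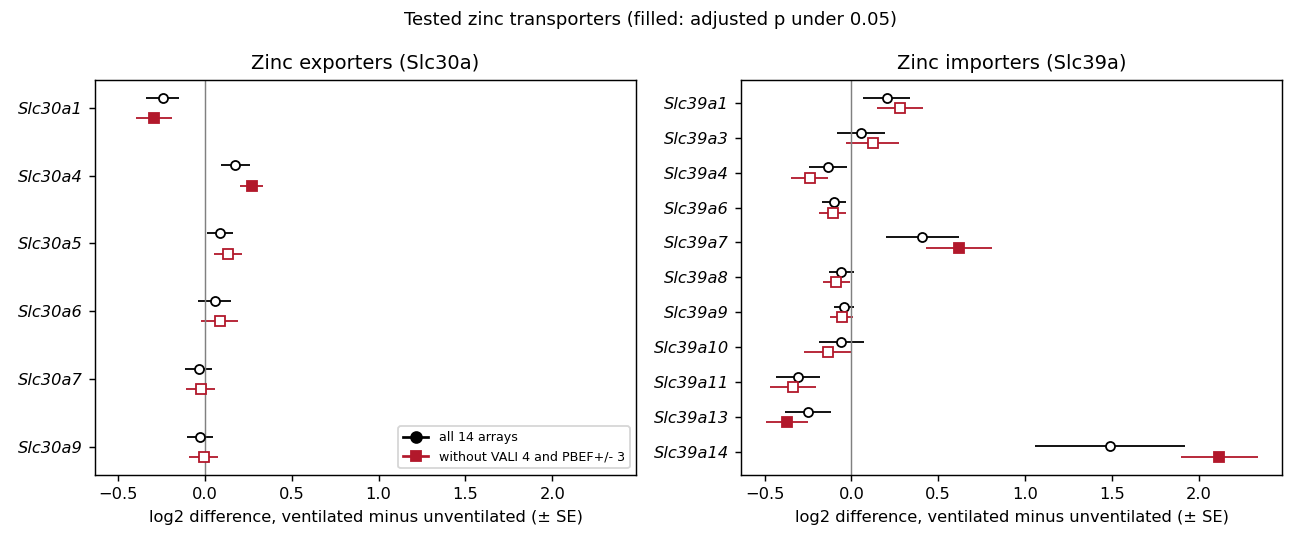
Averaged ventilated minus unventilated log2 difference with its SE (horizontal axis) for the tested zinc exporters (left) and importers (right); black circles use all 14 arrays, red squares leave out VALI replicate 4 and PBEF+/- replicate 3, and filled symbols passed an adjusted p under 0.05. Slc39a14 lies at 1.49 and 2.12, while the remaining transporters lie within 1 log2 unit of 0.

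Other genes tied to MTF1 were looked at beside the members. Of the 7 on that list, all tested, 1 rose with all arrays: Ndrg1, a gene induced by hypoxia and nickel, by 0.87 ± 0.21 (adjusted p = 0.0361). The median of the 7 was 0.57. Over all tested genes, 4.09% rose and 4.27% fell with all arrays, and 14.9% rose and 24.6% fell without both, and the counts of this and the following lists stand beside these shares. Without both arrays 5 of the 7 rose and none fell: Gclc, which makes the first step of glutathione synthesis, by 1.93 ± 0.10 (adjusted p = 2.6e-07), Ndrg1 by 1.11 ± 0.18, Pgf, a placental growth factor, by 1.05 ± 0.15, the iron exporter gene Slc40a1 by 0.81 ± 0.19 and Csrp1 by 0.26 ± 0.06. Of 12 tested genes of iron and copper handling, 1 rose with all arrays, the siderophore-binding Lcn2, by 1.44 ± 0.37 (adjusted p = 0.0406), and 2 did without both arrays, with a median of 0.04 and 0.07 in the 2 settings. These 1 and 2 of 12 are near the shares of all tested genes. Slc40a1 is on this list and on the MTF1 list, and the part of MTF1 in any of these differences was not tested.

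The pathways that also act on metallothionein genes were counted from a list each. Of 10 IL-6 and STAT3 genes, 6 rose with all arrays (4.09% of all tested genes did) and 8 without both (14.9%), and the median difference was 1.75 and 2.33. Il6, by which the pair left out was named, is on this list, so the count without both is not independent of that choice. The feedback inhibitor gene Socs3 rose by 2.49 ± 0.49 (adjusted p = 0.0289), Bcl3 by 2.45 ± 0.49 (adjusted p = 0.0289), the acute phase gene Saa3 by 3.63 ± 0.58 (adjusted p = 0.028) and Il6 by 6.22 ± 1.42 (adjusted p = 0.0332) with all arrays. Of 9 tested NRF2 and oxidative stress genes, 4 rose with all arrays and 7 without both, where 4.09% and 14.9% of all tested genes did. With all arrays, the cystine transporter gene Slc7a11 rose by 3.63 ± 0.89 (adjusted p = 0.0367) and heme oxygenase Hmox1 by 3.29 ± 0.80 (adjusted p = 0.0364). Srxn1, the sulfiredoxin gene, rose by 2.80 ± 0.62 and the thioredoxin reductase gene Txnrd1 by 1.42 ± 0.36. The part of these pathways in the metallothionein levels was not tested.

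Of 10 genes of the glucocorticoid response, 0 were called with all arrays (median 0.17), while 3 rose and 2 fell without both, a share near the 39.5% of all tested genes called there. Sgk1, a kinase gene induced by glucocorticoids, differed by 0.43 ± 0.14 (adjusted p = 0.07), and Nr3c1, the receptor gene, by -0.49 ± 0.16 (adjusted p = 0.0713). Fkbp5, a target of the receptor named here after its values were seen, was at 13.28, 13.16 and 12.87 in VILI PBEF+/- lungs, 13.19, 13.29, 13.10 and 10.09 in VALI lungs, 10.42, 8.54 and 13.18 in PBEF+/- lungs, and 9.97, 11.98, 12.04 and 8.72 in Control lungs (log2 level). Fkbp5 was highest on the same 7 arrays as Mt1, Mt2 and Slc39a14. Not every gene of the list split the arrays in this way. Dusp1 was at 13.85 to 14.68 in Control and at 13.98 to 14.60 in VALI, and Klf9 was highest on PBEF+/- replicate 2, at 14.50. With all arrays, 6 of the 10 had a positive averaged difference. In Control lungs, replicates 2 and 3 were the highest in Fkbp5 and in Mt2, while Mt1 was highest on replicate 3 and lowest on replicate 4. Replicates 2 and 3 were also the Control arrays with a female pattern, so sex and the Fkbp5 level cannot be told apart there. The part of the glucocorticoid response in the metallothionein levels was not tested.

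In whole lung, more RNA per cell and more cells that hold the RNA cannot be told apart. Neutrophil markers moved with ventilation: of 8 tested, 3 rose with all arrays (Csf3r by 2.24 ± 0.55, Mmp8 by 4.83 ± 1.21 and Cxcr2 by 2.08 ± 0.52, adjusted p = 0.0367 to 0.038) and 6 without both, where 4.09% and 14.9% of all tested genes rose. The log2 of the summed level of the 9 neutrophil markers on the array ranged over 15.25 to 15.40 in VILI PBEF+/-, 11.89 to 15.68 in VALI, 12.00 to 15.43 in PBEF+/- and 11.79 to 12.79 in Control. For macrophage markers the ranges were 15.90 to 15.97 in VILI PBEF+/-, 15.94 to 16.44 in VALI, 15.97 to 16.06 in PBEF+/- and 15.56 to 16.09 in Control, and 1 of 7, Cd14, rose (1.30 ± 0.27, adjusted p = 0.031). With all arrays, where 4.27% of all tested genes fell, 3 of 3 club cell markers fell, as did 2 of 3 ciliated cell markers (Dynlrb2 and Tppp3), 1 of 5 endothelial markers (Tek, by 0.64 ± 0.14) and 1 of 4 alveolar type II markers (Sftpc, by 0.15 ± 0.04). The part of these cells in the metallothionein and Slc39a14 differences was not tested. Liver and kidney, both rich in metallothionein RNA, were at or near the floor: Alb, Apoa1, Ttr, Umod and Slc34a1 stayed at 3.30 or lower on every array. Heart markers were not: all 4 exceeded the median on every array, and the log2 of their summed level ranged over 14.26 to 15.22. The part of heart RNA in any member's level was not tested. The lung itself was represented by its alveolar markers, all 9 of which exceeded the median on every array.

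Across the 14 arrays, the profile nearest to each member was found as the smallest mean absolute difference between log2 levels centred on their own means. For Mt2 the nearest of all tested genes was Mt1, at 0.37 log2 units, followed by Bcl3 at 0.41 and Socs3 at 0.43. The genes nearest to Mt1 were Tnfrsf12a at 0.27, Maff at 0.28 and Mthfd2 at 0.34. Tubb6 at 0.15, Slc25a25 at 0.20 and Plaur at 0.22 were nearest to Slc39a14. Mt1 and Slc39a14 themselves lay 0.50 apart, and Mt2 and Slc39a14 0.84. For the flat profiles of Mtf1 and Slc30a1, the nearest genes were Zfp275 at 0.06 and Klhl11 and Sec63 at 0.07 each. All these distances share the 14 arrays and so the 2 arrays that go against their labels.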

How the data were processed

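RNA of whole lung was measured on 14 Affymetrix arrays, 1 per sample. The authors deposited log2 expression values of 45101 probe sets, which span 0.446 to 16.1. MAS5 and GCRMA are named in the submitters' processing notes, with no version or role, and no further scaling was applied. The number of arrays limits the precision. Arrays were not stated to be separate animals, so p-values cover a spread that may be technical.

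Groups came from the titles. The highest-mean probe set stood for a gene, and 11360 of 18194 genes were tested, those above the array median on 3 or more of 14 arrays. limma 3.58.1 (R 4.3.3) was fitted to the 4 groups with a variance trend in the empirical Bayes step, and Benjamini-Hochberg adjustment ran over all 11360 genes. Every adjusted p comes from limma, and each ± after a difference is its standard error. The fit was also run on simulated data where every array followed its label and genes varied independently. That run cannot say how the fit does with arrays that go against their labels. Sex patterns were read from Xist and 3 Y-linked genes, Eif2s3y, Kdm5d and Uty, since no probe set was assigned to the planned Ddx3y alone.

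The 5 genes, the gene lists and the alternatives were chosen with earlier results of these data known. Named beside the members are called list genes (at most 4 per list, or 2 uncalled ones of lowest p for a list without calls) and the nearest profiles. The zinc transporters called only without the 2 arrays, the MTF1-tied genes called there, Slc39a8 and the genes beside Mt4 were singled out after their values were seen. Motifs were counted in RefSeq promoter windows of GRCm38.p6. Replicate numbers were not taken to pair arrays across groups: 19 same-numbered pairs correlated at -0.35 to 0.32, and 7 were over 0.1. Differently numbered pairs were not set beside them, so these values cannot decide whether the numbers pair the arrays.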

Additional observations from a re-analysis of the deposited data

Results flagged for a closer look

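The array labelled VALI replicate 4 stood far below the other 3 VALI arrays in 3 of the 5 genes. Mt1 was at 11.6401 on this array, and the gap to the next array made up 0.916 of the range of its group, above Dixon's 95% critical value for 4 arrays. Mt2 was at 10.727 (gap 0.945 of the range) and Slc39a14 at 6.8341 (gap 0.856 of the range). Chance marks about 1 in 20 groups of 4. Slc30a1 and Mtf1 had no such array in VALI, and none of the 5 genes had one in Control. Groups of 3 were not examined in this way, which leaves out PBEF+/- replicate 3.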

How the results depend on the processing

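The direction of the averaged ventilation difference of Mt1, Mt2 and Slc39a14 held under every alternative run, while the calls did not. Without VALI replicate 4 and PBEF+/- replicate 3, 3 members were called in VALI against Control, 3 in VILI PBEF+/- against PBEF+/- and 4 in the averaged comparison. The averaged comparison called 0 members with no filter on low values, where more genes are adjusted over, and 0 with the sex pattern as a covariate, where the cause was not tested. Leaving out 1 array at a time gave 0 to 2 members called in VALI against Control, 0 to 3 in VILI PBEF+/- against PBEF+/- and 0 to 3 in the averaged comparison; the remaining comparisons called 0 in each case. The number of arrays limits all of these. Replicate numbers were not taken to pair the arrays. With a replicate block the averaged comparison called 2 members and the others 0, as without it.

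Values that turned round were uncalled in both settings compared, and the cause was not tested. Between PBEF+/- and Control, Slc30a1 (-0.03 as reported) was 0.018 after quantile normalization, 0.043 with a replicate block, 0.011 with the sex covariate and 0.018 without the 2 arrays, and -0.16 to 0.069 leaving out 1 array. Mt1 was -0.14 and Slc39a14 -0.28 there without the 2 arrays, and leaving out 1 array gave -0.14 to 1.79 and -0.28 to 0.84. The mean of all probe sets turned Mtf1 to 0.097 in VALI against Control and 0.018 in PBEF+/- against Control. In the interaction, Mt1 was -0.081 with the sex covariate and -0.0093 on its second probe set, and Mt2 was 0.25 without the 2 arrays. Leaving out 1 array moved the interaction over -0.76 to 1.17 for Mt1, -1.07 to 0.98 for Mt2 and -0.021 to 0.21 for Slc30a1. Other probe sets of Mtf1 gave 0.63 in VALI against Control, 0.056 and 0.18 in PBEF+/- against Control and -0.15 in the interaction. The second Slc30a1 probe set gave 0.040 in VALI against Control, 0.029 in PBEF+/- against Control, 0.13 in VILI PBEF+/- against PBEF+/- and 0.086 in the averaged comparison. Of all member differences under alternatives, 682 kept direction and side of the threshold, 26 lost the call, 18 gained it and 32 changed sign.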
